A study of Mus musculus with 58 samples.

Results

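The genes described here are 92 autosomal mouse genes whose transcripts were present in control oocytes and whose reads in control morulae came mostly from the mother. They were chosen by measured values. A gene entered when its mean level over both control oocyte libraries was at least 20 CPM, the count of a gene scaled to a fixed library total, when both control morula libraries held at least 20 reads assigned to a parent, and when at least 80% of those reads were maternal in each. The 92 genes are 0.382% of the 24077 genes in the table, and 2.42% of the 3799 autosomal genes that met the oocyte and read minimums at any maternal share. The remaining 3707 of these genes are called the other candidates below. Oocyte levels, read numbers and maternal shares of these control libraries are therefore given as a description, and the shares get no test. Knockout oocytes and morulae are still tested against them for total level, where the control level had a minimum by the choice.

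The study followed the histone mark H2AK119ub1 and the Polycomb mark H3K27me3 through mouse oocytes and early embryos, and its RNA was sequenced at 3 stages. Fully grown oocytes (FGO) of strain B6.129 were Pcgf1/6 double knockout (KO, 2 libraries) or wild type (CTR, 2 libraries). Morulae of the cross B6.129 x PWK were Pcgf1/6 double maternal knockout (matKO, 2 libraries), so that the mother's oocyte lacked both genes, or wild type (CTR, 2 libraries). Extraembryonic ectoderm (ExE), the trophoblast tissue next to the epiblast, came from the same cross as matKO (4 libraries) or wild type (CTR, 2 libraries). The labels used here name no Cre driver, no age and no number of pooled oocytes or embryos, and they do not say whether replicates came from separate animals, so p-values measure the spread between these libraries only. All morula and ExE libraries have the mother on the B6.129 side and the father on the PWK side. In this single direction of the cross, transcripts left from the oocyte, imprinted maternal expression and a difference between the strains cannot be told apart from a maternal share alone. Morulae of the reciprocal cross were not analysed here.

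A growing mouse oocyte stores messenger RNAs that are translated during meiotic maturation and the first cleavages. Most of them are degraded around the time the embryo's own genome is switched on, well before the morula. A maternal read in a later embryo can come from such a leftover molecule or from new transcription of the chromosome inherited from the mother, including imprinted genes, whose expression depends on the parent that passed them on. PCGF1 and PCGF6 are subunits of variant Polycomb repressive complexes 1, which place H2AK119ub1.

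FGO libraries held 19805264 to 26364085 counts, morula libraries 1299715 to 1685510 and ExE libraries 3397585 to 4361832. FGO columns count all reads of a gene, whereas morula and ExE columns count only reads assigned to a parent, so levels are compared between morulae and ExE but not with FGO. Pcgf1 had 34.9 and 22.8 CPM in KO oocytes, against 1406 and 1100 CPM in CTR oocytes, and Pcgf6 had 177 and 220 CPM against 396 and 429 CPM. A summed list of 12 oocyte marker genes stood at 17546 and 22038 CPM in KO oocytes and 22287 and 22898 CPM in CTR oocytes, but at 60.5 to 109 CPM in morulae and 0.883 to 3.67 CPM in ExE. Decidua and uterus genes (17 in the list) summed to 2.43 to 32.8 CPM in matKO ExE and 1.83 to 7.82 CPM in CTR ExE. Of these reads 90.3%, 79.5%, 88.9% and 76.9% were maternal in matKO ExE, against 48.5% and 62.5% in CTR ExE. In ExE libraries 3 counts correspond to 0.688 to 0.883 CPM, so the shares at the low end of these sums rest on few reads. Dcn, Col1a2, Col3a1, Hand2, Hoxa10, Hoxa11, Vim, Cryab and Lum were at 0 in all ExE libraries, and the rest of the list was not. A list of 13 maternal and embryonic blood genes summed to 0 to 0.733 CPM in matKO ExE and 0 CPM in CTR ExE. Whether ExE samples held maternal tissue was not tested. Library ExE matKO replicate 3 stood apart, with 35.1% of its autosomal reads maternal against 51.2% to 51.5% in the other ExE libraries and 50.5% to 51.4% in morulae. Maternal shares in that library are low for genes in general, and several results are also given without it.

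Selected genes had a median maternal share of 91.5% in CTR morulae, against 51.2% for the other candidates. Their median oocyte level was 74.3 CPM, against 74.4 CPM, and their median read number in CTR morulae was 84.3 per library, against 191.5. Oocyte levels ran from 20.1 to 5540 CPM. Genes just inside the limit were Wnk1, a kinase of ion transport, with 81.7% and 80.2% maternal reads in the CTR morulae, Cep162, a centrosomal protein, with 89.9% and 80.3%, and Cdk8, the Mediator kinase, with 85.4% and 80.6%. Just outside were Lman2l with 79.7% and 83.7%, Chn2 with 79.6% and 93.3%, and Glrx3 with 79.6% and 81.5%. Among the selected genes 7 had fewer than 20 CPM in 1 of the CTR oocyte libraries while their mean passed.

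**Figure D1:**
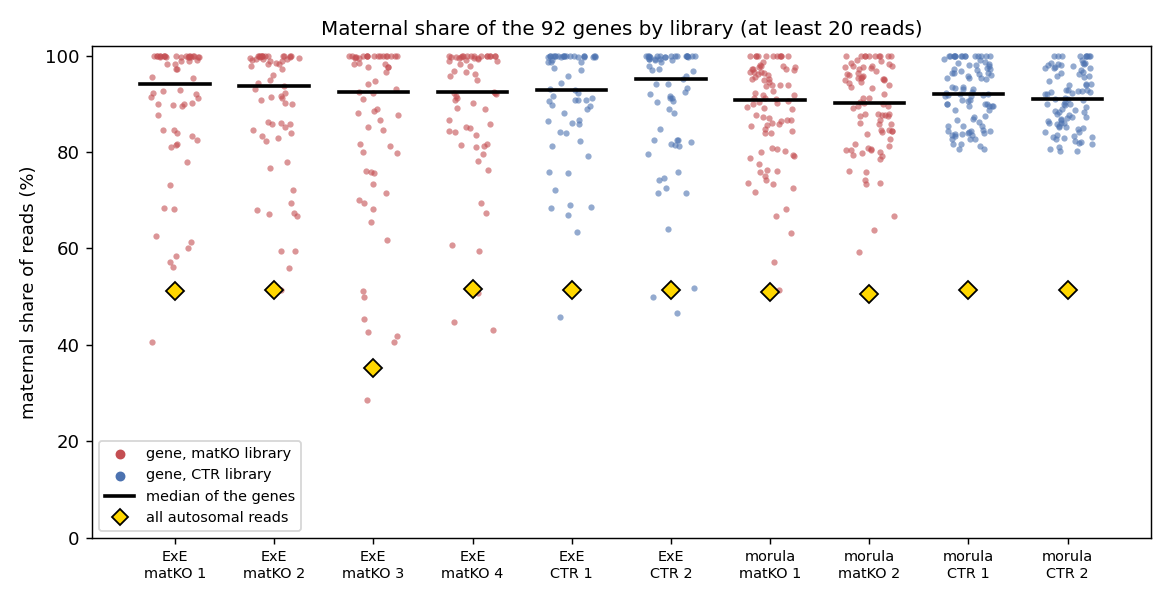
Maternal share of reads (percent, y axis) of each of the 92 genes in every ExE and morula library in which it had at least 20 reads, with matKO libraries in red and CTR libraries in blue. Black bars mark the median of the genes, between 90.1% and 95.2% in all 10 libraries, and gold diamonds mark the maternal share of all autosomal reads, which was 35.1% in ExE matKO replicate 3.

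Of the 92 genes, 4 were on lists of oocyte, meiotic and chromatin genes. These lists also hold genes that were well read in ExE, such as Cdk1 and Ccna2, so they are not lists of oocyte-specific transcripts. Across lists of zona pellucida, subcortical maternal complex, RNA storage, meiotic, chromatin, transcription factor and oocyte-specific family genes, 51 genes met the oocyte and read minimums, and 4 of them (7.84%) were selected, against 2.42% of all candidates. These were Tcl1, a co-activator of AKT signalling, Oas1e, an oocyte-expressed member of the oligoadenylate synthetase family, Npm2, the oocyte nucleoplasmin that binds histones, and Ccna2, which encodes cyclin A2. The median share of the 51 genes in CTR morulae was 51.3%, and 21 of them averaged under 50%. Several abundant oocyte transcripts that were not selected showed how far apart these shares lie. Dppa3, which protects the maternal genome from demethylation, stood at 6591 CPM in CTR oocytes and had 64.7% and 64.6% maternal reads in matKO morulae, against 66.4% and 65.4% in CTR morulae. Zp3, a zona pellucida glycoprotein of oocytes, stood at 3612 CPM, yet 25% and 13.9% of its reads in matKO morulae were assigned to the mother, against 5.13% and 15.3% in CTR morulae. How reads were assigned to a parent is not given in the sources used here.

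Listed imprinted genes contributed no member, but few of them could have. Of 34 paternally expressed imprinted genes in the table, 0 met both minimums. Of 42 maternally expressed imprinted genes in the table, 4 met both minimums (Nap1l4, Ube3a, Gnas and Blcap) and none was selected. As 2.42% of all candidates were selected, none of 4 says little about imprinting among the selected genes. Among the 11 maternally expressed imprinted genes with at least 20 reads in both CTR morulae, 2 had 80% or more maternal reads in each. They were Meg3, a maternally expressed long noncoding RNA, with 100% and 100% in matKO morulae against 96.6% and 95.7% in CTR morulae, and Dhcr7, a sterol reductase imprinted in placenta, with 95.1% and 100% against 83.7% and 91.5%. Both missed the oocyte minimum, at 7.76 and 4.40 CPM.

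The matKO morula libraries did not enter the choice and give the first independent reading of the maternal bias. Of the 92 genes, 80 had at least 20 reads in both matKO libraries, 60 of these were at least 80% maternal in each and 7 were under 80% in each. The median of the genes' mean shares was 89.96%, against 50.4% for the other candidates. In edgeR's quasi-likelihood test of maternal against paternal reads, 85 of the 92 genes had enough reads to be tested and 76 were higher from the mother, none from the father. DESeq2 called 57 of the 85, against 6.94% of all genes tested. Of all 7018 autosomal genes tested, 11.6% were higher from the mother, 10.6% from the father and 22.2% in either direction. The median log2 ratio of maternal to paternal reads was 2.97 over the selected genes and -0.02 over all genes tested.

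The selected genes with the highest shares in matKO morulae held no paternal read there. Atp6v1b2, a subunit of the vacuolar proton pump, had 47 and 39 reads in the matKO libraries, all maternal. Edc4, a scaffold of mRNA decapping, had 20 and 26, Ints10, an Integrator subunit, 13 and 22, and Smim7, a small membrane protein, 12 and 16, again all maternal. At the other end, Msrb3, a methionine sulfoxide reductase, was 64.3% and 59.3% maternal in matKO morulae on 14 and 27 reads, against 95.4% and 90.9% in CTR morulae on 65 and 44 reads. The exact binomial 95% interval of the first matKO value starts at 35.1% and that of the second ends at 77.6%, and both cover counting error only. Rnf141, a RING finger protein, was 57.1% and 63.9% maternal in matKO morulae, against 84.1% and 85.1% in CTR morulae. Npm2 was 76.0% and 63.2% maternal in matKO morulae, against 87.5% and 85.0% in CTR morulae. Pnpla3, a lipid droplet enzyme, was 68.1% and 74.1% maternal on 248 and 139 reads in matKO morulae, against 84.0% and 83.3% in CTR morulae. In these 4 genes both matKO shares lie under both CTR shares, but the CTR shares had to be high by the choice, so the gap was not tested.

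ExE libraries form a later stage of the same cross and were also not used in the choice. A gene counts as readable in ExE here when each of the 6 libraries held at least 20 of its reads, which 60 of the 92 genes did. Of those 60, 41 were at least 80% maternal in every library, which is 68.3%, against 28 of 3153 readable other candidates, or 0.888%. Together 69 candidate genes were maternal in ExE by this measure, and the 41 selected genes are 59.4% of them. Another 9 selected genes lay above 65% in every library without reaching 80% in each, 2 lay between 35% and 65% in each, none was at most 35% in each and 8 were spread across these limits. Without ExE matKO replicate 3 the maternal class held 47 genes and the balanced class 3. Relative to the autosomal total of each allele, 59 of the 62 genes that could be tested were called higher from the mother and none from the father. Over all 6857 genes tested in ExE, 25.6% were higher from the mother, 23.7% from the father and 49.3% in either direction. The median log2 ratio was 3.65 over the selected genes and -0.01 over all genes tested. With the same library size for both alleles of a library, 58 of the 62 were higher from the mother. That compares with 14.3% of all genes tested higher from the mother and 27.9% called in either direction.

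For many of these genes the ExE reads were nearly free of paternal ones. In each of the 6 ExE libraries 26 of the 60 readable selected genes were at least 95% maternal and 16 at least 99%. Among the 3153 readable other candidates these counts were 14 and 8. Without ExE matKO replicate 3 they were 28 and 18 of 61 selected genes, against 14 and 8 of 3161 others. Ccna2 had 470 to 541 reads per ExE library and 99.6% to 100% of them were maternal, after 100% and 98.5% in matKO morulae. Cenpw, a centromere protein, had 976 to 1328 reads and 99.6% to 100%, after 98.6% and 97.9% in matKO morulae. Atp6v1b2 kept 100% maternal reads in every ExE library on 160 to 321 reads. Mterf3, a regulator of mitochondrial gene expression, and Smim7 also had no paternal read in any ExE library, on 160 to 323 and 25 to 57 reads. Ints10 stood at 99.4% to 100% and Hagh, the glyoxalase II enzyme, at 99.7% to 100%. The ExE maternal signal of these genes therefore lay at the upper end of the scale, while their morula reads contained between none and a few percent of paternal reads.

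A second set of genes was close to completely maternal in ExE but held clearly more paternal reads in morulae. Nubp2, which helps assemble cytosolic iron-sulfur proteins, was 99.9% to 100% maternal in ExE on 1633 to 2367 reads. In matKO morulae it was 87.7% and 89.2% maternal on 424 and 472 reads, against 95.7% and 86.8% in CTR morulae. Hspd1, the large mitochondrial chaperonin, was 99.9% maternal in all 4 matKO ExE libraries on 1611 to 1841 reads, against 85.7% and 82.8% in matKO morulae. Fth1, the ferritin heavy chain that stores iron, was 99.8% to 99.9% maternal in ExE, against 91.2% and 95.8% in matKO morulae. Gmfb, a regulator of actin branches, was 99.4% to 100% maternal in ExE, against 96.1% and 87.9% in matKO morulae. Among the ribosomal genes, Rps18 was 94.7% to 98.2% maternal in ExE, with 97.2% as the lowest share outside matKO replicate 3, against 86.0% and 80.5% in matKO morulae.

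The change of the maternal to paternal ratio between ExE and morulae was tested within the matKO libraries. It could be tested in 59 of the 92 genes, and 23 were called, 17 with a higher and 6 with a lower maternal ratio in ExE. Over all 5567 genes tested, 18.6% were called, 10.4% higher and 8.23% lower. The median change was 0.51 on the log2 scale over the selected genes and 0.01 over all genes tested. The log2 change was 7.90 (SE 0.35, adjusted p = 2.06e-11) for Hspd1, 7.64 (SE 0.30, adjusted p = 4.88e-12) for Nubp2 and 5.68 (SE 0.46, adjusted p = 2.50e-07) for Fth1. The maternal ratio of Rps18 rose by 3.07 (SE 0.29, adjusted p = 4.13e-07). The size of such ratios rests on very few paternal reads in ExE, so shares are the safer scale.

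Other genes were called in the same direction. Psma5, a structural subunit of the proteasome core, was 98.3% to 99.8% maternal across the ExE libraries, against 86.4% and 87.9% in matKO morulae. Phgdh, the first enzyme of serine synthesis, was 99.2% to 100% maternal in ExE, against 97.6% and 95.2% in matKO morulae. Lamtor1, which anchors the Ragulator complex to lysosomes, was 99.6% to 100% maternal in ExE, against 97.3% and 97.5% in matKO morulae. Adrm1, a ubiquitin receptor of the proteasome, was 94.2% to 97.1% maternal in ExE, against 89.4% and 85.7% in matKO morulae. Brk1, a subunit of the WAVE actin regulator, was 84.6% to 92.8% maternal in ExE, with a lowest share of 90.7% outside matKO replicate 3, against 80.2% and 80.4% in matKO morulae. In Psma5, Phgdh, Lamtor1, Adrm1 and Brk1 every ExE share lay above both matKO morula shares. Without matKO morula replicate 2 the call was lost for Phgdh, Lamtor1 and Adrm1 as well as for Cenpw, Hnrnpk, Lipt2, Mrfap1 and Rpl35a.

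Fewer genes had a lower maternal ratio in ExE than in matKO morulae. Dst, a large linker of cytoskeletal filaments, was 58.5%, 59.5%, 28.6% and 43.2% maternal in matKO ExE, against 45.8% and 51.7% in CTR ExE. In matKO morulae it was 90.1% and 79.8% maternal on 111 and 114 reads, against 84.4% and 87.7% in CTR morulae. All 6 ExE shares lay under all 4 morula shares, and the log2 ratio fell by 2.46 in matKO ExE relative to matKO morulae (SE 0.44, adjusted p = 0.000621). Dock9, an activator of the small GTPase CDC42, was 57.1%, 72.2%, 73.4% and 81.0% maternal in matKO ExE, against 96.4% and 96.0% in matKO morulae, with a log2 change of -3.18 (SE 0.76, adjusted p = 0.00695). Both calls held in every alternative in which the genes were tested.

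Map1b, a microtubule-associated protein, was balanced in ExE, with 56.2%, 59.6%, 40.7% and 44.8% maternal reads in matKO libraries and 51.1% and 50.0% in CTR libraries. In matKO morulae it was 66.7% and 95% maternal on 30 and 40 reads, against 90% and 86.0% in CTR morulae. Its log2 change of -2.05 (SE 0.66, adjusted p = 0.0371) became -0.79 (adjusted p = 0.530) without matKO morula replicate 2, and its adjusted p was above 0.05 without any 1 of the ExE libraries. Efcab11, an EF-hand protein, changed by -1.65 (SE 0.55, adjusted p = 0.0458), and leaving out either morula library or ExE matKO replicate 1, 2 or 3 ended the call, with adjusted p of 0.0812 to 0.192. Zc2hc1a changed by -1.42 (SE 0.35, adjusted p = 0.00861) and Coa5, a cytochrome c oxidase assembly factor, by -0.99 (SE 0.25, adjusted p = 0.00966). Without matKO morula replicate 2 their adjusted p were 0.193 and 0.262, so these calls depend on that library. Coa5, Zc2hc1a and Efcab11 were still called higher from the mother in the ExE allele test (log2 2.46, 0.97 and 1.11). Their lowest shares in any ExE library were 75.9%, 51.1% and 41.9%. Msrb3, the other balanced gene, was 61.4%, 55.9%, 50.0% and 50.7% maternal in matKO ExE and 63.5% and 46.7% in CTR ExE, close to its shares in matKO morulae. Its change between stages was not called (log2 -0.20, SE 0.55, adjusted p = 0.858).

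**Figure D2:**
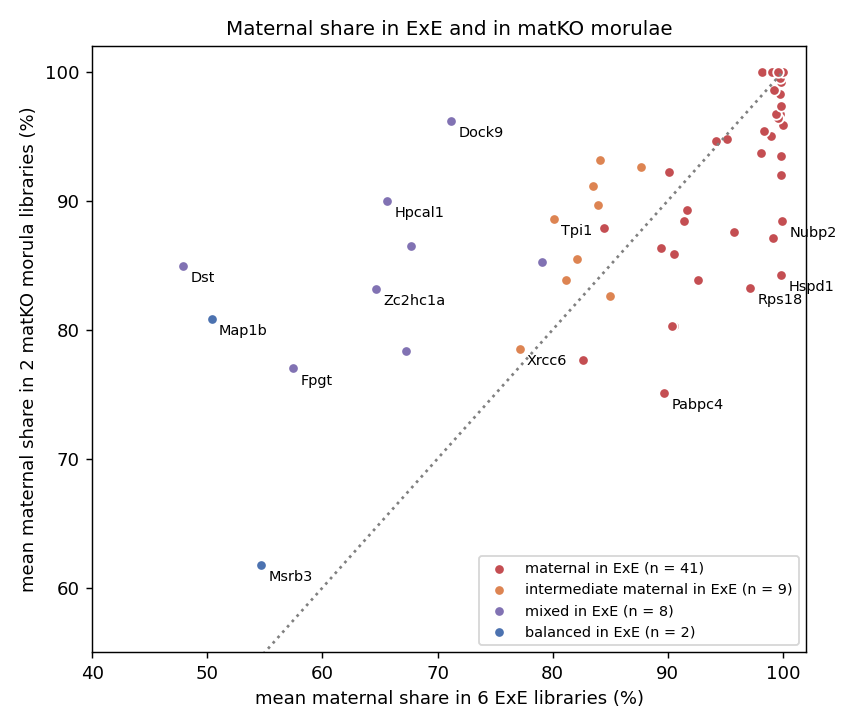
Mean maternal share (percent) in the 6 ExE libraries (x axis) and in the 2 matKO morula libraries (y axis) of the 60 genes with at least 20 reads in every ExE library, coloured by their class in ExE. Most genes lie at the upper right, whereas Dst, Map1b, Fpgt and Msrb3 lie near equal shares in ExE. The dotted line marks equal shares in both stages.

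Other genes had partial maternal bias in ExE. Xrcc6, which encodes the Ku70 DNA repair protein, was 77.9% to 78.2% maternal in 3 matKO ExE libraries and 69.97% in replicate 3, against 79.1% and 79.7% in CTR ExE. Its matKO morula shares were 75.8% and 81.3%. Rplp0, a ribosomal stalk protein, was 89.6%, 91.5%, 79.8% and 84.2% maternal in matKO ExE, against 90.5% and 90.6% in CTR ExE, and its matKO morula shares were 94.0% and 91.3%. Pdia4, a protein disulfide isomerase of the endoplasmic reticulum, was 86.7% to 90.4% maternal across ExE, against 87.0% and 85.7% in matKO morulae. Pabpc4, a poly(A)-binding protein, was 81.2% to 92.3% maternal across ExE, with a lowest share of 89.7% outside matKO replicate 3, against 74.1% and 76.1% in matKO morulae, and its ratio rose by 1.65 on the log2 scale (SE 0.26, adjusted p = 0.000207). Fpgt, an enzyme of fucose salvage, was spread in ExE. It was 40.7%, 51.3%, 42.7% and 69.5% maternal in matKO ExE, against 69.0% and 71.5% in CTR ExE, and the ranges overlap. The ExE test called Fpgt higher from the mother (log2 0.54, SE 0.21, adjusted p = 0.0388), but leaving out ExE matKO replicate 3 or 4 or either CTR library gave adjusted p of 0.0802 to 0.134. Hpcal1, a neuronal calcium sensor protein, was 81.6%, 68.0%, 45.3% and 59.5% maternal in matKO ExE, against 66.8% and 72.6% in CTR ExE. In matKO morulae it was 100% and 80% maternal on 53 and 25 reads, and its change of -2.72 on the log2 scale was not called (SE 0.93, adjusted p = 0.0651).

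**Figure D3:**
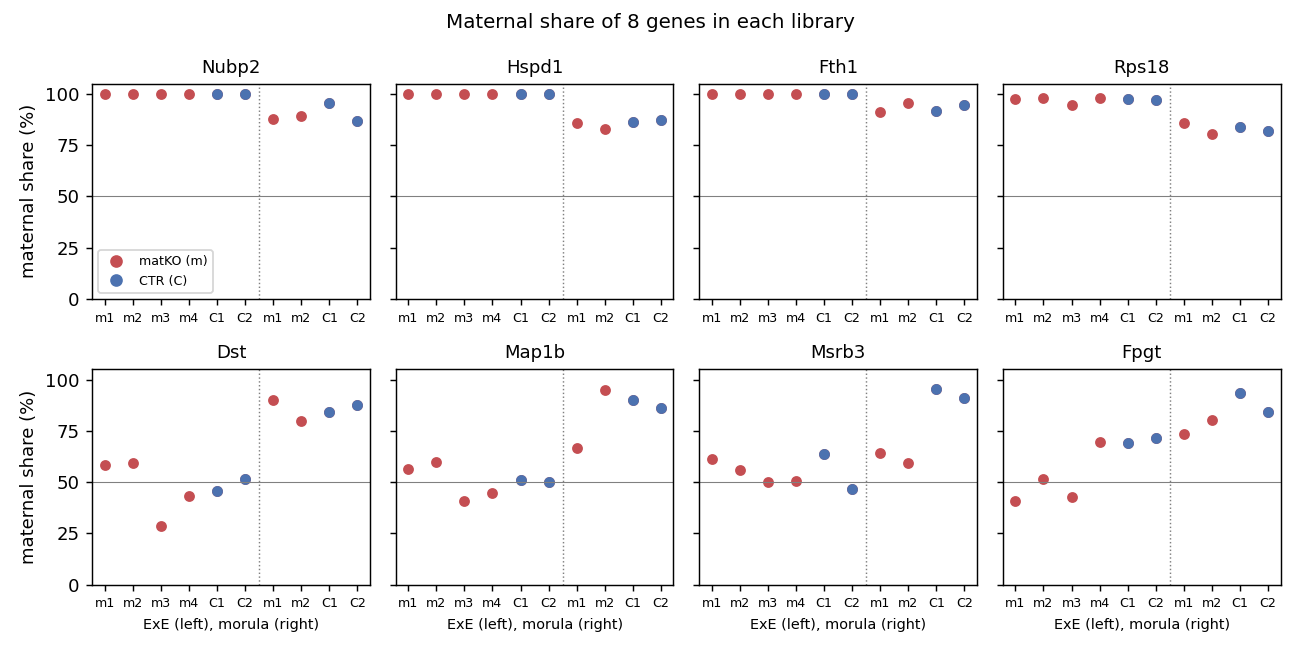
Maternal share (percent, y axis) of 8 genes in each library, with ExE libraries left and morula libraries right of the dotted line, matKO (m, red) and CTR (C, blue). Nubp2, Hspd1 and Fth1 stand at 99.7% or more in every ExE library and Rps18 at 94.7% or more, while Dst, Map1b, Msrb3 and Fpgt spread around equal shares in ExE.

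Oocyte-abundant members followed another course, since their transcripts were hardly read in ExE. All 7 genes above 500 CPM in CTR oocytes were among the 32 (34.8%) that were not readable in ExE, against 14.9% of the other candidates at any oocyte level. The share among other candidates above 500 CPM was not computed, and those on the lists went both ways. Padi6 (1910 CPM) had no read in ExE, whereas Spin1 (4900 CPM) had 76 to 159 maternal reads per ExE library. Tcl1 had 7641 and 6325 CPM in KO oocytes, against 5762 and 5318 CPM in CTR oocytes. In matKO morulae it had 35 and 23 reads, of which 97.1% and 100% were maternal, against 31 and 72 reads with 80.6% and 86.1% in CTR morulae. Its reads in ExE were 11, 0, 0 and 5 in matKO libraries and 0 and 1 in CTR libraries. Tcl1 was thus read at low numbers in every morula library and close to 0 in ExE.

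Oas1e had 1549 and 2000 CPM in KO oocytes, against 2077 and 1865 CPM in CTR oocytes, and 97.2% and 94.5% of its 108 and 91 reads in matKO morulae were maternal. In ExE it had 2 reads in 1 matKO library and none elsewhere. Plat, the tissue plasminogen activator, is a known example of an mRNA that mouse oocytes keep dormant until maturation. It had 1479 and 1090 CPM in KO oocytes, against 1064 and 1069 CPM in CTR oocytes. All of its 17 and 20 reads in matKO morulae were maternal, against 90.8% and 81.0% of 76 and 42 reads in CTR morulae, and no ExE library held more than 8. Arg2, the mitochondrial arginase, had 450 and 580 CPM in KO oocytes, against 511 and 533 CPM in CTR oocytes. Its matKO morula reads were 86.5% and 86.7% maternal and its ExE libraries held at most 3 reads. Npm2 and Nudc, a partner of the dynein motor, both had no read in any ExE library.

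A count of 0 in ExE needs care in this table. Of 4790 genes with at least 50 reads in every morula library, 226 (4.72%) were at 0 in all 6 ExE libraries, while only 5 of 3245 genes with at least 150 reads in every ExE library were at 0 in all morula libraries. Among the selected genes 9 (9.78%) were at 0 in all ExE libraries, against 174 (4.69%) of the other candidates. They include genes that most cells use. Psmb5, a catalytic subunit of the proteasome, is listed at 0 in all 6 ExE libraries, against 145 and 149 reads in matKO morulae. Eno1, the glycolytic enolase, is also listed at 0 in ExE, against 92 and 99 reads in matKO morulae. Such zeros are given here only as listed values, with no fold change, and no loss of the transcript is read from them. The level test below still counts these 9 genes among its lower calls.

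Read levels in ExE and morulae were compared within the matKO libraries, on all parent-assigned reads. All 92 genes were tested, 34 were higher in ExE and 40 lower, while 70.4% of all 10269 genes were called, 30.6% higher and 39.8% lower. The median log2 change of ExE over morula was 0.00 over the selected genes and -0.23 over all genes tested. Setting the genes at 0 to a floor of 3 counts over the group could not move the first median, as they stay far below it. Restricted to genes with at least 20 reads in every library of both stages, 31 of 54 were higher and 9 lower, against 33.7% higher and 34.9% lower over all 5285 such genes. All 32 genes that were not readable in ExE were among the lower ones, and the readable ones had to pass a minimum of ExE reads, so the readable genes are not read for a direction of level. In a bulk sample, fewer cells of a type and less RNA per cell cannot be told apart.

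The 5 largest called rises in level were those of Tpi1, Gapdh, Hspe1, Fth1 and Rpl35a. Tpi1, the triose phosphate isomerase, had 2742 to 3734 CPM in matKO ExE, against 20.8 and 28.9 CPM in matKO morulae, a log2 change of 7.51 (SE 0.20), and its ExE reads stayed 81.4% to 83.3% maternal outside replicate 3, where the share was 69.3%. Gapdh had 171 to 198 CPM in matKO ExE, against 6.92 and 18.5 CPM in matKO morulae (log2 change 4.36, SE 0.28), with 96.9% to 99.1% maternal reads over the 6 ExE libraries. Hspe1, the small mitochondrial chaperonin, rose by 4.08 (SE 0.23), Fth1 by 3.39 (SE 0.15) and Rpl35a, a ribosomal protein of the large subunit, by 3.22 (SE 0.19). These rises are relative to the total reads of each library. The number of pooled embryos is not given, so amounts of RNA per embryo were not compared. Gapdh, Tpi1, Eno1, Fth1, Hspe1, Hspd1 and the ribosomal protein genes belong to classes of mRNA with processed copies elsewhere in the mouse genome, and how reads with several matches were counted is not given, so their levels and shares are uncertain.

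In oocytes the loss of PCGF1 and PCGF6 left most of these transcripts without a call. All 92 genes were tested, and 3 passed an adjusted p of 0.05, against 7.22% of all 13459 genes. In the higher direction it was 2 of 92 against 5.35%, and in the lower direction 1 of 92 against 1.87%. Tpi1 had 218 and 188 CPM in KO oocytes, against 103 and 96.4 CPM in CTR oocytes, and both KO values lay above both CTR values (log2 fold change 0.92, SE 0.14, adjusted p = 0.00619). BC051019, which is named here as one of only 3 called genes, had 69.1 and 38.6 CPM in KO oocytes, against 22.0 and 19.4 CPM in CTR oocytes (1.26, SE 0.23, adjusted p = 0.0144). Slc10a6, a carrier of sulfated steroids, had 31.6 and 32.2 CPM in KO oocytes, against 46.2 and 53.7 CPM in CTR oocytes (-0.74, SE 0.18, adjusted p = 0.0413). Its adjusted p was 0.0870 without KO replicate 1, 0.0550 without CTR replicate 1 and 0.272 without CTR replicate 2. Leaving out KO replicate 2 raised the count of called genes to 12 (13.0%), of which 10 were lower, against 14.3% of 14148 genes tested, 7.62% higher and 6.72% lower. The median log2 fold change was -0.08 over the selected genes and 0.00 over all genes tested, and the CTR level of the selected genes had a minimum by the choice. With the replicate number as a block, 7 genes (7.61%) were called, against 15.02% of all genes tested.

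**Figure D4:**
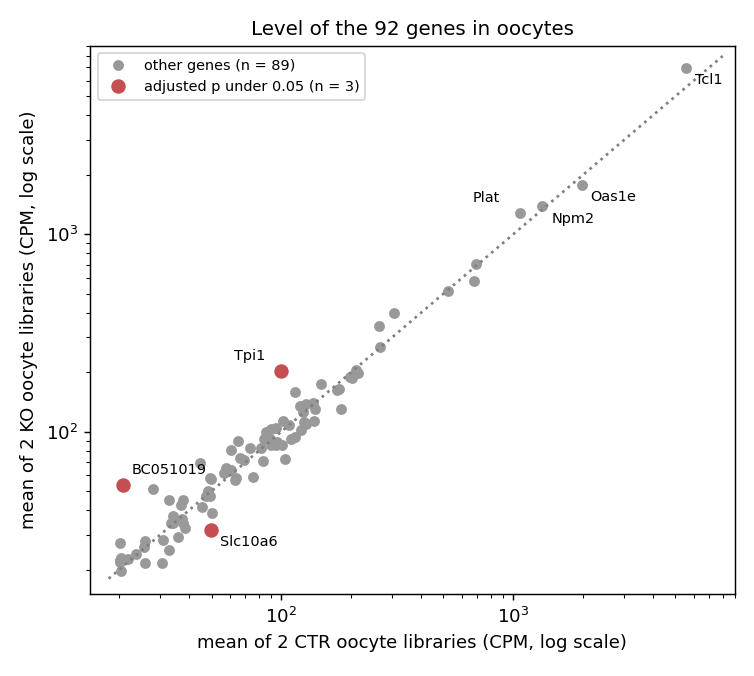
Mean level in 2 KO (y axis) and 2 CTR (x axis) oocyte libraries of the 92 genes, in CPM on log scales. The dotted line marks equal levels, and the 3 genes with an adjusted p under 0.05 (Tpi1, BC051019 and Slc10a6) are red.

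Pnpla3 stood out in oocytes by its replicates. It had 2.27 and 202 CPM in KO oocytes, against 2.01 and 241 CPM in CTR oocytes, a gap of 88.9-fold within KO and 120-fold within CTR between replicates 1 and 2. Its place among the selected genes therefore rests on CTR replicate 2. Gapdh, with 19.7 and 82.9 CPM in KO oocytes and 21.6 and 34.6 CPM in CTR oocytes, was the only other selected gene whose replicates differed by 3-fold or more within a group.

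Total levels in morulae and in ExE gave no call between matKO and CTR. The choice set a minimum on the CTR morula reads, so falls in matKO morulae are not free of it. In morulae none of the 92 genes passed edgeR's test, against 0.132% of 9063 genes (0.0221% higher, 0.11% lower). There 11 of the 92 had an unadjusted p under 0.05, against 1791 of the 9063. DESeq2 called none of the 92, against 208 of the 9063. Rab38, a GTPase of melanosome transport, had 7.69 and 20.8 CPM in matKO morulae, against 39.8 and 66.1 CPM in CTR morulae (log2 fold change -1.84, SE 0.49, adjusted p = 0.129). Pnpla3 had 191 and 103 CPM in matKO morulae, against 77.7 and 68.0 CPM in CTR morulae (1.05, SE 0.29, adjusted p = 0.133). Tpi1 had 20.8 and 28.9 CPM, against 107 and 44.7 CPM (-1.56, SE 0.45, adjusted p = 0.137), the opposite sign to its change in oocytes. Without matKO replicate 2, Rab38 (-2.72, adjusted p = 0.00909), Pnpla3 (1.43, adjusted p = 0.00137) and Pdia4 (-0.86, adjusted p = 0.0325) were called, and without CTR replicate 2 Tpi1 was called (-2.04, adjusted p = 0.0183). Of all genes tested, 5.37% were called without matKO replicate 2. With a replicate block Pnpla3 and Rab38 were called, against 3.42% of all genes. In ExE 65 of the genes could be tested and none was called, as for 0% of 8386 genes. An unadjusted p under 0.05 was found for 7 of the 65, against 1161 of all genes tested. DESeq2 called none of the 65, against 2.53% of all genes tested. Median log2 fold changes over the selected genes were 0.04 in morulae and -0.12 in ExE, against -0.02 and 0.00 over all genes tested. With a replicate block 3 ExE genes were called, Eri2, Pabpc4 and Tmem181a, all higher in matKO, against 11.0% of all genes tested under that block, 5.81% higher and 5.199% lower.

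Position was shared by some of the genes. In the GRCm38.p6 annotation, 23 of the 92 lay within 1 Mb of another, a count given as a description with no comparison to other genes. Hspd1 (chr1:55077833-55088243) and Hspe1 (chr1:55088148-55091317) overlap at their ends, where their shared promoter region is known to drive both genes, and both were 98.2% or more maternal in every ExE library. Because the libraries do not mark the strand, reads in the overlap cannot be divided between them. Rps2, Hagh (chr17:24839781-24864450) and Nubp2 (chr17:24882611-24886350) lie within 1 Mb of each other in a row, as do Fth1, Ddb1 and Pga5 on chromosome 19. Along chromosome 8, Ints10 and Atp6v1b2 lie 259 kb apart, and Atp6v1b2 and Ndufa13 780 kb apart. Tpi1 (chr6:124810586-124814158) and Gapdh (chr6:125161852-125166467) lie 348 kb apart.

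Promoters are shown for 1 gene of each main course, Tcl1, which was abundant in oocytes and close to 0 in ExE, and Cenpw, which stayed 99.6% or more maternal in ExE. The RefSeq windows on GRCm38.p6 run from 250 bases before to 50 bases after the start of a RefSeq transcript, on the minus strand for both, at chr12:105222688-105222987 for Tcl1 and chr10:30200491-30200790 for Cenpw. That start is the annotated upstream end of the gene for Tcl1 and lies 63 bases inside it for Cenpw. Capitals mark each CG dinucleotide, the site of DNA methylation, which reads the same on both strands.
Tcl1: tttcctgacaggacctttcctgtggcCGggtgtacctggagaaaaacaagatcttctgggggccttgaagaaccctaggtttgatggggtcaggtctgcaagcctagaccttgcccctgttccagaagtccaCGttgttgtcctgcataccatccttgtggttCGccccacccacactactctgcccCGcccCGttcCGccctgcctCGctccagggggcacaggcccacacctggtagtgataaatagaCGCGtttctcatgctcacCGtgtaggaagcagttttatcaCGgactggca
Cenpw: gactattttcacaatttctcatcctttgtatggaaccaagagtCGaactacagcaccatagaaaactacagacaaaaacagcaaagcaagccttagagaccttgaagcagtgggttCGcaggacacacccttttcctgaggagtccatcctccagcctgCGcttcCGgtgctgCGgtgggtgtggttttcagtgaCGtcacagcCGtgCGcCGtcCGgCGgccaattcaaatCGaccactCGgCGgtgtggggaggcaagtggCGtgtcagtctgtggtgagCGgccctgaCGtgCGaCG
The Tcl1 window holds 11 CG and the Cenpw window 19. Of all RefSeq promoter windows in the table, 94.2% hold at least 1 CG, 41.9% hold at least as many as Tcl1 and 28.4% at least as many as Cenpw. Over the selected genes 73 of 92 (79.3%) matched a window, under the 80% needed, so a comparison of the whole set with other genes was void. These letters are a description only.

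The label of oocyte transcripts still maternal in morulae holds for the oocyte level and the morula share, which chose the genes, and for the share in 60 of 80 genes in matKO morulae. It does not by itself describe the 41 genes that were still at least 80% maternal in every ExE library. For the 32 genes without enough ExE reads, among them Tcl1, Oas1e, Plat and Npm2, the ExE share could not be read.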

How the data were processed

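RNA was measured with the SMART-Seq v4 and Nextera XT kits per the labels' protocols, in 14 libraries used here. The authors deposited whole-number counts, per the file headers, as 1 column for each FGO library and as a maternal and a paternal column for each morula and ExE library. The submitters' processing notes list STAR 2.7.3, RSEM 1.3.1 and the build mm10 for the whole series. How a read was given to the mother or the father is not given in the sources used here. Not analysed here are the 40 CUT&RUN samples and 4 reciprocal-cross morula samples, which have no column in the table used.

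CPM used column totals, with both parental columns summed. Symbols were matched to GRCm38.p6, 23975 by symbol and 81 by synonym, with 21 unmatched. In CPM, 3 counts correspond to 0.114 to 0.151 for oocytes, 1.78 to 2.31 for morula libraries and 0.688 to 0.883 for ExE libraries. Tests used edgeR 4.0.16 (TMM, filterByExpr, robust quasi-likelihood F test) over all genes, with Benjamini-Hochberg adjusted p under 0.05 and log2 fold changes with standard errors (SE). Allele tests used maternal and paternal counts with library as a covariate, each allele's autosomal total as library size and a mean of at least 20 reads, with an allele-by-stage term for ExE against morulae. Sum and allele tests were checked on simulated counts. Alternatives were other read minimums, size factors, no low-count filter, equal allele offsets, DESeq2 1.42.0, a replicate block, each library left out and, chosen after seeing the data, a read minimum in both stages and near-complete shares without ExE matKO replicate 3. Intervals are exact Clopper-Pearson and cover counting error only.

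The genes and gene lists were chosen with earlier results of these data known. Named were genes on the known lists, the 8 with most reads in CTR morulae, the extremes of matKO morula share (4 each way) and ExE share (6 each way), the 5 largest called changes each way per comparison and 3 genes either side of the limit. Gene models without a proper name were counted and not named, except BC051019. Arg2, Plat, Rab38, Gapdh's oocyte replicates, Psma5, Phgdh, Lamtor1, Adrm1, Brk1, Eri2, Tmem181a, Rps18 and genes of position pairs were named after their values were seen.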

Additional observations from a re-analysis of the deposited data

Results flagged for a closer look

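In the 4 ExE matKO libraries, the gap of 1 library to the other 3 was large relative to their whole range in 8 of 32 measures tested, where chance gives about 1 in 20 for measures that vary freely. The autosomal maternal share was 35.1% in replicate 3, against 51.2% to 51.5% in the other matKO libraries. In the same library the maternal share of Tpi1 was 69.3%, against 81.4% to 83.3%, and that of Xrcc6 was 69.97%, against 77.9% to 78.2%. Pdia4 stood at 86.7% there, against 89.9% to 90.2%, and Rpl35a at 99.7%, against 99.8% in the others. For 3 more genes the library apart was another one and the others were at 100%, so that any single paternal read gives the largest possible gap and the measure says little. Edc4 had 97.2% and Ints10 99.4% in replicate 2, and Hagh had 99.7% in replicate 1.

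The allelic ratio changed between ExE and morulae, by the allele-by-stage test in matKO libraries, in 23 genes. Log2 changes above 5 were found for Hspd1 (7.90), Nubp2 (7.64), Mterf3 (6.39), Fth1 (5.68) and Gmfb (5.43). Mterf3 had no paternal read in ExE, so its fitted value is no bound. Rpl35a (4.24), Psma5 (3.77), Phgdh (3.62), Lamtor1 (3.59), Rps18 (3.07), Cenpw (2.61) and Hnrnpk (2.03) followed. Changes under 2 were found for Adrm1 (1.82), Pabpc4 (1.65), Brk1 (1.40), Lipt2 (1.29) and Mrfap1 (0.88). Changes below 0 were found for Dock9 (-3.18), Dst (-2.46), Map1b (-2.05), Efcab11 (-1.65), Zc2hc1a (-1.42) and Coa5 (-0.99).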

How the results depend on the processing

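The number of selected genes was 197 at a maternal share of 70%, 45 at 90%, 61 with 50 reads and 58 with 50 CPM in oocytes. With 50 reads per ExE library 37 genes stayed maternal and 0 balanced, and without 1 ExE library 41 to 47 were maternal and 2 or 3 balanced. Genes called in oocytes numbered 5 without the low-count filter, against 8.75% of all genes tested. With the replicate block they numbered 7, against 15.02%, and all 3 original calls were kept. In morulae 3 and 2 genes were called in that order, against 3.24% and 3.42% of all genes tested. In ExE 0 and 3 were called, against 0.853% and 11.01%. Without 1 ExE matKO library 0 were called, against 0% to 0.0721%. Oocyte and morula counts also moved without 1 library, which leaves 1 library in that group. The level change between stages was called in 40 genes with at least 20 reads in every library. Equal allele offsets left 12 genes with a changed allelic ratio, 11 of them shared, while 4.49% of all 5567 genes tested were called. Leaving out 1 ExE library left 20 to 22, against 16.1% to 16.8% of all genes tested. The main test called 18.6% of all genes. The 12 genes under equal offsets were split into 9 higher and 3 lower, against 121 higher and 129 lower over all genes tested. The count also fell without 1 matKO morula library, which leaves 1 library in that group. ExE allele calls were 58 or 59 of 62 without 1 library, against 45.4% to 47.3% of all genes tested. Level calls without 1 ExE library were 72 to 74 of 92, against 68.4% to 69.9% of all genes tested. With 1 matKO morula library left out, 73 or 68 genes were at least 80% maternal. The allele test in matKO morulae could not be run without 1 of its 2 libraries. Of 1001 values of single genes under alternatives, 938 kept their side of the threshold, 54 lost it, 9 gained it and none turned its sign. Replicate numbers are shared between groups without any label saying that they pair libraries, and with 2 numbers per group the correlation of deviations was 0.25 in FGO, 0.18 in morulae and 0.26 and 0.08 in ExE. The cause of these shifts was not tested. Morula depth limits shares of genes with few reads.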
